A study of Arabidopsis thaliana with 6 samples.

Results

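The iron deficiency response genes of Arabidopsis thaliana described here are IRT1, FRO2, FIT, BHLH38, BHLH39, BTS, PYE, FRO3, MYB72 and FER1. They were taken by locus identifier and make up 10 of the 36917 genes in the count files. Levels were measured by RNA-Seq of ribosomal RNA-depleted total RNA from 6-day-old seedlings grown on sucrose-containing Murashige and Skoog medium in long days. There were 3 libraries of amiR-mterf2, in which an artificial microRNA directed against MTERF2 reduces its transcript, and 3 libraries of the wild type Col-0. The knockdown is represented by a single transgenic line, amiR1-3-mterf2. MTERF2 encodes a plastid protein of the mitochondrial transcription termination factor family, and the study used a knockdown because plants without the gene do not complete embryo development. No iron treatment was applied in these libraries, so the comparison asks how iron genes differ between the genotypes on standard medium.

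Arabidopsis takes up iron by a reduction strategy. At the root epidermis, protons are released, the ferric chelate reductase FRO2 reduces ferric iron, and the transporter IRT1 carries ferrous iron into the cell. The basic helix-loop-helix (bHLH) factor FIT turns on both genes together with partners such as BHLH38 and BHLH39, whose own transcripts rise under iron deficiency. PYE, another bHLH factor, represses genes of iron distribution in the root, and the E3 ubiquitin ligase BTS restrains the response by promoting the breakdown of bHLH activators. FRO3 is a ferric reductase of mitochondria, MYB72 is a root factor of the deficiency response, and FER1 is a plastid ferritin that stores iron and whose transcript rises with iron excess.

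Total counts on genes were 18004935, 21832003 and 19598682 in amiR-mterf2, and 19314222, 18922938 and 19578810 in Col-0. Levels are given as CPM, counts scaled to a common library size after TMM normalization. The upper limit that a count of 0 allows was taken as 3 counts, which treats counts as independent. It equals 0.146 to 0.175 CPM in amiR-mterf2 and 0.14 to 0.163 CPM in Col-0. MTERF2 itself had 32, 16 and 8 counts in amiR-mterf2, against 48, 33 and 58 in Col-0, with a log2 fold change of -1.15 (SE 0.478) and an adjusted p of 0.0837 in edgeR's quasi-likelihood test. Col-0 replicate 2 stood apart from the other Col-0 libraries. The mean chi-square per gene was 25.2 and 24.3 between it and Col-0 replicates 1 and 3, while it was 3.35 to 3.58 between amiR-mterf2 libraries and 3.03 between Col-0 replicates 1 and 3. Among genes with 1 to 20 counts, 72.2% to 74.9% of values were even in the other 5 libraries and 43.3% in Col-0 replicate 2. With at least 20 counts over the 6 libraries, 381 of 20164 genes (1.89%) had a CPM in Col-0 replicate 2 more than 4 times that of every other library (or of 3 counts, where the others were lower), while each other library had 1 to 5 such genes. Among these 381 were IRT1, BHLH38 and BHLH39. Fold changes of those of the 10 genes that were tested, and counts of calls in the lists, are therefore given with and without Col-0 replicate 2. Group means and SDs include that library. The call of every other iron gene named below as having risen or fallen was also made without it.

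The promoters of some of these genes carry the hexamers CACGTG or CACATG, of the E-box class that bHLH factors bind, or CACGTC, which differs from CACGTG in its end base, and the stretches around them are shown because regulators and their targets are both among the 10 genes. Windows ran from 250 bases before to 50 bases after the annotated transcript start in RefSeq TAIR10.1, and both strands were searched. The palindrome CACGTG was found in the windows of BHLH38, BTS and FRO3, which is 3 of 10 genes, and in 7.68% of 27443 protein-coding nuclear genes. CACGTC was found in PYE, BTS, FRO3 and FER1, against 6.98% of all windows, and CACATG in BHLH39, against 12.9%. The capitals in the following stretches mark these hexamers, each read on the strand of the gene, so that a match on the opposite strand appears as its reverse complement. No marked hexamers overlap.
BTS promoter, chr3:6273816-6273915, plus strand: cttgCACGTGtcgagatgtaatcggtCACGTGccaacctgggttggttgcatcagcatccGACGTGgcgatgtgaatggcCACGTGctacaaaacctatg
FRO3 start, chr1:8153782-8153811, minus strand: gacttataatgcCACGTGacactctcttag
BHLH38 promoter, chr3:21085316-21085355, minus strand: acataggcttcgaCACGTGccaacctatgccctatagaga
BHLH39 promoter, chr3:21087751-21087790, minus strand: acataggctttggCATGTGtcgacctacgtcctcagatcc
In BTS, CACGTG begins 146, 124 and 70 bases before the start and a reverse CACGTC lies between them, at 90 bases before it. In FRO3 the hexamer begins 3 bases before the start. BHLH38 and BHLH39 are neighbours on chromosome 3, and their stretches open with the same letters, with CACGTG in BHLH38 where BHLH39 has a reverse CACATG. A match describes the letters only, and binding was not measured.

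The 10 genes ranged from abundant to scarce. Per kilobase of exon, mean levels in amiR-mterf2 and Col-0 were 150.3 and 148 CPM for FER1, 13.5 and 12.8 CPM for BTS, and 13.2 and 7.90 CPM for FRO3. PYE had 1.90 and 3.40 CPM per kilobase in amiR-mterf2 and Col-0, and FRO2 had 0.105 and 0.622. The remaining 5 genes had means of at most 0.0320 CPM per kilobase in amiR-mterf2 and at most 1.62 in Col-0. The value of 1.62 is that of BHLH39, which had 0, 5.83 and 0.0935 CPM in Col-0 replicates 1, 2 and 3. Of the 10, 5 passed the filter on low counts (FRO2, PYE, BTS, FRO3 and FER1), and IRT1, FIT, BHLH38, BHLH39 and MYB72 did not. Of those 5, FRO3 was higher and FRO2 lower in amiR-mterf2 at an adjusted p under 0.05 (edgeR, p-values adjusted by Benjamini-Hochberg), and the other 3 were not called. The same test called 36.4% of the 17902 genes tested, 18.1% higher and 18.2% lower, so 2 of 5 is near the share of all genes. FRO2 entered the test through Col-0. With at least 10 counts in every library FRO2 was not tested, and of 4 tested members FRO3 was higher and PYE lower. That fit called 2842 genes higher and 2882 lower of 15770 tested. Without Col-0 replicate 2, the test called 42.9% of 18303 genes, 22.1% higher and 20.8% lower, and 4 of the 5 tested members passed, with BTS and FRO3 higher and PYE and FER1 lower. When libraries were scaled by total counts instead of TMM, 2131 genes were higher and 4136 lower, against 3248 and 3261 with TMM, and the median over all tested genes moved to -0.17 on the log2 scale instead of -0.02.

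**Figure D1:**
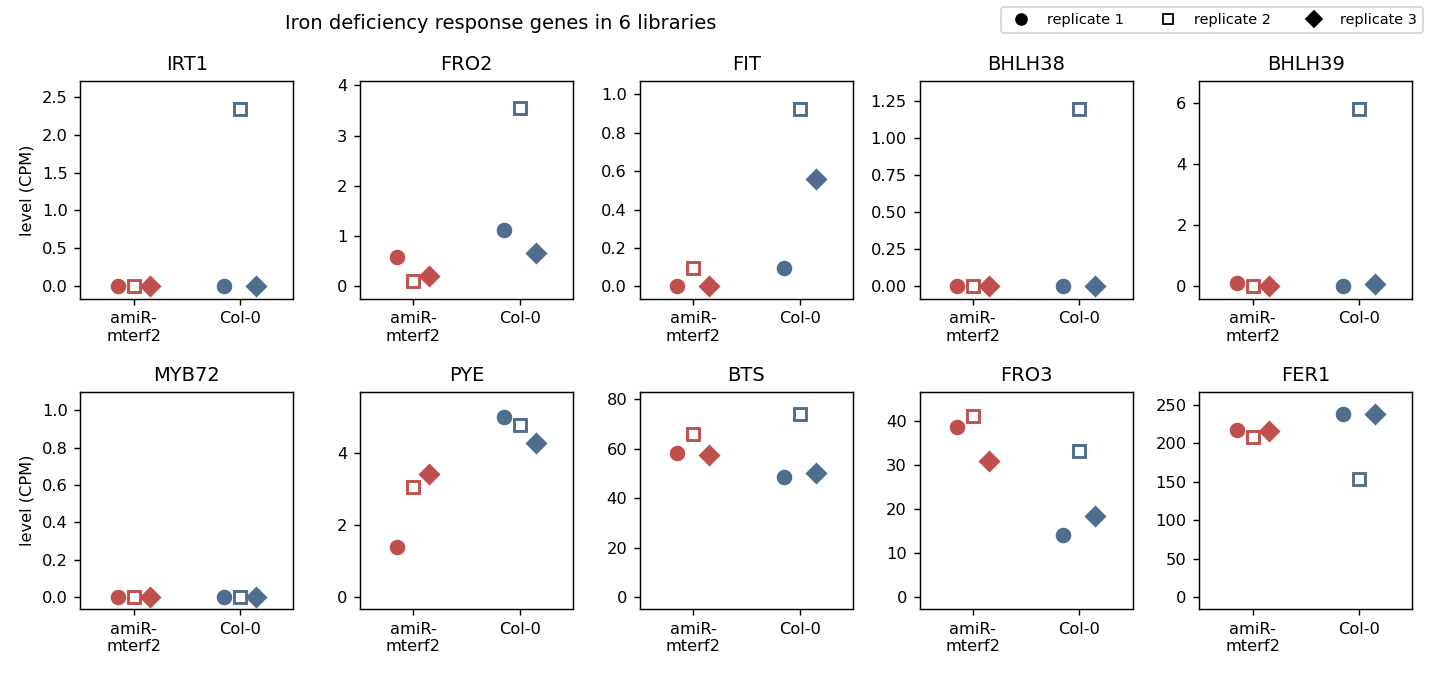
Level of each of the 10 genes (y axis, CPM, a separate scale in each panel) in 3 amiR-mterf2 (left, red) and 3 Col-0 (right, blue) libraries, with marker shape giving the replicate. The points of Col-0 replicate 2 are alone above the others for IRT1, BHLH38 and BHLH39, and MYB72 is at 0 in all 6 libraries.

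IRT1, the ferrous iron transporter of the root epidermis (AT4G19690, chromosome 4, bases 10707344 to 10709015, plus strand), had 0 counts in all 3 amiR-mterf2 libraries, against 0, 43 and 0 counts in Col-0. The 43 counts equal 2.34 CPM. All of the IRT1 signal in these data came from Col-0 replicate 2, and the other 5 libraries, of both genotypes, were at 0. IRT2, its close relative and neighbour on chromosome 4, had 0, 0 and 2 counts in amiR-mterf2, against 10, 84 and 4 in Col-0. IRT2 was thus detected in all Col-0 libraries, and it did not pass the filter on low counts. Neither transporter entered the edgeR test on filtered counts. With no filter, edgeR gave IRT1 an adjusted p of 0.0264 and IRT2 an adjusted p of 0.00238, both lower in amiR-mterf2, and the DESeq2 Wald test gave 0.236 for IRT1 and 0.0217 for IRT2. IRT2 also entered the edgeR test when some libraries were left out, with a call without amiR-mterf2 replicate 3 (0.0456) or Col-0 replicate 3 (0.00404) and none without amiR-mterf2 replicate 1 (0.0619) or 2 (0.0694). Without Col-0 replicate 1 or 2 it was not tested.

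FRO2, the root ferric chelate reductase (AT1G01580, chromosome 1, bases 208995 to 213082, plus strand), had 10, 2 and 4 counts in amiR-mterf2, against 24, 65 and 14 in Col-0. Its levels were 0.584, 0.0976 and 0.214 CPM in amiR-mterf2, and 1.13, 3.54 and 0.654 CPM in Col-0. All amiR-mterf2 libraries lay below all Col-0 libraries, as they did for 24.4% of genes tested, and the highest Col-0 value was again that of replicate 2. FRO2 averaged 0.298 ± 0.254 CPM in amiR-mterf2 and 1.77 ± 1.55 CPM in Col-0 (SD, n = 3 each). It fell in amiR-mterf2 by 2.57 on the log2 scale (SE 0.762), with an adjusted p of 0.0216 in edgeR. Without Col-0 replicate 2 the log2 fold change was -1.59 (SE 0.726) and the edgeR adjusted p was 0.0811. Leaving out amiR-mterf2 replicate 2 or 3 also ended the call, with edgeR adjusted p values of 0.094 and 0.0883. All 3 Col-0 libraries were above the filter on low counts, through which FRO2 entered the test.

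FIT, the bHLH factor that drives FRO2 and IRT1 (AT2G28160, chromosome 2, bases 12004658 to 12006276, plus strand), had 0, 2 and 0 counts in amiR-mterf2, against 2, 17 and 12 counts in Col-0. FIT counts were above 10 in Col-0 replicates 2 and 3 only, and the groups overlapped because the 0.0976 CPM of amiR-mterf2 replicate 2 exceeded the 0.0938 CPM of Col-0 replicate 1. Its partner BHLH38 (AT3G56970, chromosome 3, bases 21084035 to 21085245, minus strand) had 0 counts in all amiR-mterf2 libraries, against 0, 22 and 0 in Col-0. BHLH39 (AT3G56980, chromosome 3, bases 21086390 to 21087710, minus strand) had 2, 0 and 0 counts in amiR-mterf2, against 0, 107 and 2 in Col-0. Both genes were thus at or near 0 in 5 of 6 libraries, and none of FIT, BHLH38 and BHLH39 entered the edgeR test on filtered counts. With no filter, edgeR gave adjusted p values of 0.0448 for FIT, 0.0112 for BHLH39 and 0.064 for BHLH38. The DESeq2 Wald test gave 0.0416 for FIT and 0.333 for BHLH38, and no p-value for BHLH39. FIT was also called by edgeR without Col-0 replicate 1 (0.0138) or amiR-mterf2 replicate 2 (0.0493), and not without amiR-mterf2 replicate 1 (0.107) or 3 (0.11). Without Col-0 replicate 2 or 3 it was not tested.

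The counts of BHLH38 and BHLH39 carry a limit of their own. They share an identical coding stretch of 34 bases, and 386 of 1082 exon bases of BHLH38 overlap the opposite-strand gene AT3G56960, which had 2, 8 and 10 counts in amiR-mterf2 and 13, 6 and 8 in Col-0. Whether the counting used strand is not given in the sources used here. BHLH100 and BHLH101 belong to the same bHLH subgroup as BHLH38 and BHLH39 and act beside them in the response. BHLH100 had 0 counts in every amiR-mterf2 library, against 0, 51 and 1 in Col-0, the same single-library pattern as BHLH38 and BHLH39, with adjusted p values of 0.0154 in edgeR with no filter and 0.212 in DESeq2. BHLH101 had 9, 18 and 15 counts in amiR-mterf2, against 22, 47 and 10 in Col-0. Its log2 fold change was -0.85 (SE 0.59) with an edgeR adjusted p of 0.292, and -0.02 without Col-0 replicate 2.

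Summed over IRT1, FRO2, FIT, BHLH38 and BHLH39, levels were 0.701, 0.195 and 0.213 CPM in amiR-mterf2, and 1.22, 13.8 and 1.31 CPM in Col-0. These sums and those of root hair markers, which are expressed in the root epidermis, were both highest in Col-0 replicate 2. IRT1, BHLH38 and BHLH39 had already stood out in that library, so this likeness was not independent of the genes summed. Of 6 root hair markers (COBL9, EXPA7, EXPA18, PRP1, PRP3 and LRX1), summed levels were 0.234, 0.0975 and 0.107 CPM in amiR-mterf2, against 1.41, 64.2 and 1.96 CPM in Col-0. PRP1 and LRX1 were at 0 in all amiR-mterf2 libraries, and EXPA7 was at 0 in all libraries but Col-0 replicate 2. COBL9 had 0, 0 and 2 counts in amiR-mterf2, against 10, 176 and 12 in Col-0, and alone of the 6 passed the filter on low counts, through Col-0 only, so its fitted fold change is not used here. The root hair sum in Col-0 replicate 2 was thus far above that of Col-0 replicates 1 and 3, like the iron gene sum.

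Root endodermis markers also differed between the genotypes, but did not set Col-0 replicate 2 apart. CASP1 to CASP5, which build the Casparian strip, summed to 17.3, 14.8 and 15 CPM in amiR-mterf2, and to 38, 45.1 and 44.5 CPM in Col-0. All 5 fell in amiR-mterf2 (edgeR adjusted p under 0.05), with a median log2 fold change of -1.71, and all 5 were also lower without Col-0 replicate 2, with a median of -1.63. Of all genes tested, 18.2% were called lower, and 20.8% without Col-0 replicate 2. Markers of the shoot epidermis and guard cell lineage summed to 110, 106 and 106 CPM in amiR-mterf2, and to 102, 118 and 118 CPM in Col-0. Of the 5, 4 were tested and the wax gene CER1 was called lower in amiR-mterf2, and without Col-0 replicate 2 CER1 was lower and PDF1 higher. Mesophyll markers summed to 14700 to 15000 CPM in amiR-mterf2, and to 10700, 16500 and 10800 CPM in Col-0, with 1 of 4 called higher (LHCB1.3) and 1 lower (LHCB2.1). When Col-0 replicate 2 was left out, 3 of the 4 mesophyll markers were higher (RBCS1A, LHCB1.3 and LHCB3, with log2 fold changes of 0.76, 0.69 and 0.19) and LHCB2.1 was lower. For these shoot markers the share of all genes tested that was called in either direction was 36.4%, and 42.9% without Col-0 replicate 2. In RNA from seedlings, fewer cells of a type and less RNA per cell cannot be told apart, and the part of root markers in the values of IRT1, FRO2, FIT, BHLH38 and BHLH39 was not tested.

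**Figure D2:**
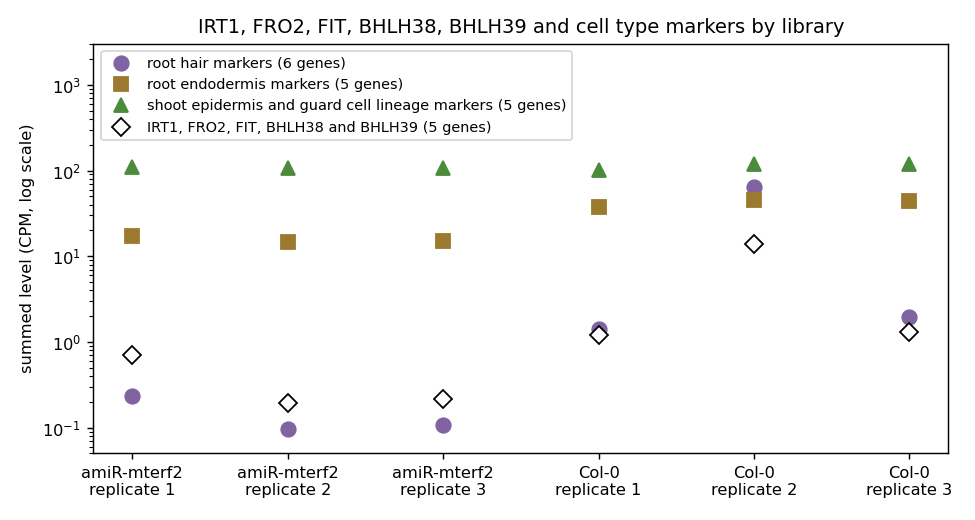
Summed level (y axis, CPM, log scale) of the root hair, root endodermis and shoot epidermis markers and of IRT1, FRO2, FIT, BHLH38 and BHLH39 in each library (x axis, amiR-mterf2 left of Col-0). In Col-0 replicate 2 the root hair sum is 64.2 CPM and the iron gene sum 13.8 CPM, while the endodermis sum, 45.1 CPM, is close to that of the other Col-0 libraries.

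Among the regulators, PYE and BTS were the members with counts high enough to test. PYE (AT3G47640, chromosome 3, bases 17567126 to 17569394, plus strand) had 1.40, 3.07 and 3.42 CPM in amiR-mterf2, against 5.02, 4.79 and 4.30 CPM in Col-0. All amiR-mterf2 libraries lay below all Col-0 libraries, as they did for 24.4% of genes tested, and Col-0 replicate 2 lay between the other Col-0 libraries. PYE averaged 2.63 ± 1.08 CPM in amiR-mterf2 and 4.70 ± 0.368 CPM in Col-0 (SD, n = 3 each). Its log2 fold change was -0.83 (SE 0.302), and the adjusted p of 0.0524 in edgeR missed the threshold. Without Col-0 replicate 2 the log2 fold change was -0.81 with an edgeR adjusted p of 0.0305. Over all 15 settings it lay between -1.05 and -0.53, with an adjusted p of 0.0252 to 0.13, and 6 settings called it.

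BTS (AT3G18290, chromosome 3, bases 6273966 to 6280562, plus strand) had 58.3, 65.8 and 57.4 CPM in amiR-mterf2, against 48.4, 74.2 and 50.1 CPM in Col-0. The amiR-mterf2 libraries lay above Col-0 replicates 1 and 3 and below Col-0 replicate 2. BTS averaged 60.5 ± 4.63 CPM in amiR-mterf2 and 57.5 ± 14.4 CPM in Col-0 (SD, n = 3 each), with a log2 fold change of 0.07 (SE 0.16) and an edgeR adjusted p of 0.753. Without Col-0 replicate 2 it was 0.30 higher on the log2 scale (SE 0.0795) with an edgeR adjusted p of 0.00332, so the call rests on that library. The related ligases BTSL1 and BTSL2, which act on the response in the root, did not pass the test. BTSL1 had 11, 12 and 20 counts in amiR-mterf2, against 8, 93 and 2 in Col-0, with a log2 fold change of -1.24 (SE 0.998, edgeR adjusted p 0.368) that turned to 1.68 (adjusted p 0.0811) without Col-0 replicate 2. BTSL2 had 75, 78 and 74 counts in amiR-mterf2, against 94, 58 and 73 in Col-0, with a log2 fold change of 0.14 (SE 0.223, edgeR adjusted p 0.659).

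MYB72 (AT1G56160, chromosome 1, bases 21022384 to 21023587, plus strand) had 0 counts in all 6 libraries. If counts are independent, this allows up to 0.175 CPM in amiR-mterf2 and 0.163 CPM in Col-0. Of its 1034 exon bases, 765 are shared with the opposite-strand gene AT1G56165, which had 8, 0 and 0 counts in amiR-mterf2 and 7, 3 and 3 in Col-0.

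FRO3, the mitochondrial ferric reductase (AT1G23020, chromosome 1, bases 8149868 to 8153796, minus strand), had 663, 843 and 578 counts in amiR-mterf2, against 303, 611 and 397 in Col-0. Its levels were 38.7, 41.1 and 30.9 CPM in amiR-mterf2, and 14.2, 33.3 and 18.6 CPM in Col-0. The groups overlapped, because amiR-mterf2 replicate 3 lay below Col-0 replicate 2. FRO3 averaged 36.9 ± 5.37 CPM in amiR-mterf2 and 22.0 ± 9.99 CPM in Col-0 (SD, n = 3 each), and it rose 1.68-fold in amiR-mterf2, a log2 fold change of 0.75 (SE 0.256, edgeR adjusted p 0.0402). Without Col-0 replicate 2 the log2 fold change was 1.17 (SE 0.128) with an edgeR adjusted p of 4.55e-08. Leaving out any of the other 5 libraries ended the call, with edgeR adjusted p values of 0.0597 to 0.14. FRO3 shares 24 exon bases with the opposite-strand gene AT1G23010, which had 14 to 25 counts in amiR-mterf2 and 23 to 32 in Col-0.

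FER1, the plastid ferritin (AT5G01600, chromosome 5, bases 227953 to 230051, minus strand), was the most abundant of the 10 genes. It had 3709, 4260 and 4054 counts in amiR-mterf2, against 5080, 2826 and 5104 in Col-0, or 217, 208 and 216 CPM against 238.3, 153.9 and 238.5 CPM. Col-0 replicate 2 lay below all other libraries, and the other Col-0 libraries lay above all amiR-mterf2 libraries. FER1 averaged 214 ± 5.01 CPM in amiR-mterf2 and 210.2 ± 48.8 CPM in Col-0 (SD, n = 3 each), with a log2 fold change of 0.02 (SE 0.155) and an edgeR adjusted p of 0.926. Without Col-0 replicate 2 the log2 fold change was -0.16 (SE 0.0499) with an edgeR adjusted p of 0.0141, so direction and call rest on that library.

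FER4, a ferritin of plastids and mitochondria, rose in amiR-mterf2. It had 28.1, 21.7 and 25.1 CPM in amiR-mterf2, against 15.2, 10.8 and 10.9 CPM in Col-0, a 2.03-fold difference (log2 fold change 1.02, SE 0.162, edgeR adjusted p 0.000587). The other ferritins were not called. The plastid ferritin FER3 had 192, 245 and 232 counts in amiR-mterf2, against 188, 227 and 192 in Col-0, with a log2 fold change of 0.24 (SE 0.158, edgeR adjusted p 0.266), and with 0.42 (adjusted p 0.0246) without Col-0 replicate 2. FER2, the ferritin of seeds, had 8, 10 and 4 counts in amiR-mterf2 and 16, 13 and 10 in Col-0, and did not pass the filter on low counts. FER1 shares identical coding runs of at most 17 bases with FER3 and FER4.

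**Figure D3:**
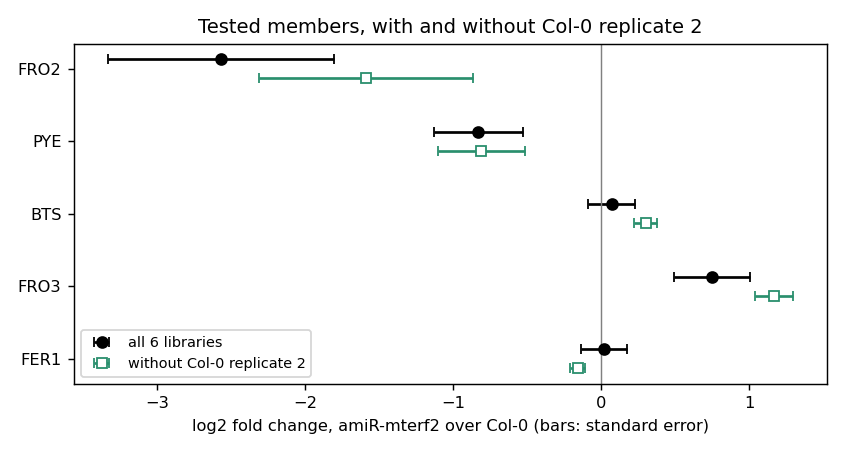
Log2 fold change of the 5 tested members, amiR-mterf2 over Col-0 (x axis, bars are standard errors), from all 6 libraries and without Col-0 replicate 2. BTS, FRO3 and FER1 move when that library is left out, to 0.30, 1.17 and -0.16, and FRO2 moves to -1.59, while PYE stays at -0.83 and -0.81.

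The wider iron pathway was read from 4 lists written from known roles, 58 genes with the 10 members included. Of these, 39 were tested, of which 6 rose, 16 fell and 17 did not pass the test, or 56.4% called against 36.4% of all genes tested. Their median log2 fold change was -0.85, against -0.02 over all genes tested. Without Col-0 replicate 2 the lists had 8 higher and 17 lower of 40 tested with a median of -0.24, while 42.9% of all genes tested were called. With at least 10 counts in every library, which FRO2, NAS1, NAS4, FRD3 and BHLH34 did not have, 30 were tested, 6 rose and 12 fell. Over all genes, 2842 were then higher and 2882 lower of 15770 tested. The lists differed among themselves.

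Iron distribution held most of the genes that fell. Of 18 genes of distribution and of ferric reductases in other tissues, 17 were tested, 11 fell and 3 rose, or 82.4% called against 36.4% of all genes tested. Their median log2 fold change was -1.77. Without Col-0 replicate 2, 11 fell and 3 rose with a median of -1.79, while 42.9% of all genes tested were called. Both counts of 11 include NAS1, NAS4 and FRD3. With all 6 libraries these genes passed the filter only through Col-0, so their falls lend no support here. With at least 10 counts in every library they were not tested. FRO6, FRO7, FRO8, YSL1, YSL2, NAS3, ZIF1 and NRAMP3 were then still lower. FRO3, YSL3 and FPN1 were higher, against 2842 higher and 2882 lower of 15770 genes. Of 4 nicotianamine synthase genes, whose enzymes make the iron chelator nicotianamine, NAS1, NAS3 and NAS4 fell in amiR-mterf2. NAS2 did not pass the filter, with 0 counts in every amiR-mterf2 library, against 6, 12 and 0 in Col-0. NAS1 had 0.234, 0.0976 and 0.214 CPM in amiR-mterf2, against 2.20, 16.0 and 3.08 CPM in Col-0, a log2 fold change of -5.25 (SE 0.877, edgeR adjusted p 0.00082), which was -3.84 without Col-0 replicate 2. NAS1 had only 4, 2 and 4 counts in amiR-mterf2 and entered the test through Col-0 alone. NAS3 had 2.22, 1.81 and 2.88 CPM in amiR-mterf2, against 15.4, 8.82 and 16.1 CPM in Col-0 (log2 fold change -2.55). NAS4, a gene that PYE represses, had 0.350, 0.976 and 0.534 CPM in amiR-mterf2, against 2.16, 6.26 and 1.87 CPM in Col-0 (log2 fold change -2.42, and -1.66 without Col-0 replicate 2). NAS1 and NAS2 share an identical coding run of 49 bases. It is shorter than the read length the paper gives, so only reads shortened by trimming could lie within it.

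FRD3, YSL2 and NRAMP3 were among the transporters of the same list that fell, while YSL3 and FPN1 rose and OPT3, NRAMP4 and PIC1 were not called. FRD3, which loads citrate into the xylem for iron transport, had 0.117, 0.293 and 0.107 CPM in amiR-mterf2, against 0.938, 1.74 and 1.22 CPM in Col-0 (log2 fold change -2.84). With 2, 6 and 2 counts in amiR-mterf2, FRD3 entered the test through Col-0 alone. YSL2, of the family that moves iron-nicotianamine complexes, averaged 3.70 CPM in amiR-mterf2 and 14.9 CPM in Col-0, a fold of 0.25. NRAMP3, which exports iron from the vacuole, averaged 3.94 CPM in amiR-mterf2 and 13.8 CPM in Col-0 (log2 fold change -1.80). The ferric reductase family, to which FRO2 and FRO3 belong, did not move one way.

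FRO6, a reductase of the shoot, had 22.8, 24.2 and 22.6 CPM in amiR-mterf2, against 106, 73.3 and 113 CPM in Col-0, a log2 fold change of -2.07 (SE 0.159, edgeR adjusted p 3.25e-06). FRO7, the chloroplast reductase next to it on chromosome 5, had 12.7, 13.7 and 12.7 CPM in amiR-mterf2, against 52.2, 34.6 and 46.2 CPM in Col-0, a log2 fold change of -1.77 (SE 0.155, edgeR adjusted p 8.49e-06). FRO6 and FRO7 share an identical coding run of 205 bases, so their separate values are uncertain. FRO8 had 3.27, 3.61 and 3.26 CPM in amiR-mterf2, against 15.3, 9.80 and 17.3 CPM in Col-0 (log2 fold change -2.06). Of the 5 ferric reductase genes FRO2, FRO3, FRO6, FRO7 and FRO8, FRO3 was thus called higher and the other 4 lower. Among those 4, only the FRO2 call was lost without Col-0 replicate 2, and FRO2 had entered the test through Col-0.

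Genes that rose were fewer. YSL3, an iron-nicotianamine transporter, had 40.1, 35.6 and 39.4 CPM in amiR-mterf2, against 26.1, 23.8 and 25.5 CPM in Col-0 (log2 fold change 0.61). FPN1, which exports iron toward the xylem, had 11.6, 10.7 and 8.11 CPM in amiR-mterf2, against 5.30, 4.85 and 6.54 CPM in Col-0 (log2 fold change 0.86). Neither call was lost in any setting tried.

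Of 20 regulators, 11 were tested, 2 rose and 1 fell, or 27.3% called, below the 36.4% of all genes tested. Their median log2 fold change was -0.15. Without Col-0 replicate 2, 3 rose and 2 fell of 11 tested, while 42.9% of all genes tested were called. BHLH121, a bHLH factor that acts upstream of BHLH38, BHLH39, PYE and BTS, had 50.7, 50.1 and 42.0 CPM in amiR-mterf2, against 22.1, 18.8 and 27.8 CPM in Col-0, a 2.07-fold rise (log2 fold change 1.05, SE 0.151, edgeR adjusted p 3e-04). BHLH104, another activator upstream of the same genes, had 18.9, 18.4 and 19.9 CPM in amiR-mterf2, against 14.5, 14.7 and 14.6 CPM in Col-0 (log2 fold change 0.39, SE 0.113, edgeR adjusted p 0.0198). Leaving out replicate 1 or 3 of either genotype gave BHLH104 an edgeR adjusted p of 0.0502 to 0.0715, and total counts without TMM gave 0.203. The related factor BHLH34 had 0.467, 1.76 and 1.12 CPM in amiR-mterf2, against 2.49, 2.995 and 4.30 CPM in Col-0 (log2 fold change -1.53, edgeR adjusted p 0.0156), and lost the call without amiR-mterf2 replicate 3 (0.0577) or Col-0 replicate 3 (0.0718). These upstream factors thus did not share a direction.

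Of 12 genes of uptake and root secretion, 6 were tested and 2 fell, or 33.3% called against 36.4% of all genes tested. Their median log2 fold change was -0.92. Without Col-0 replicate 2, 0 rose and 1 fell of 6 tested, with a median of 0.11, while 42.9% of all genes tested were called. The genes that fell with all 6 libraries were FRO2 and AHA2, a root plasma membrane proton pump. AHA2 had 93.4, 105.3 and 102.5 CPM in amiR-mterf2, against 129, 387 and 133 CPM in Col-0 (log2 fold change -1.11, edgeR adjusted p 0.0281, and -0.38 with an adjusted p of 2.53e-05 without Col-0 replicate 2). Leaving out any amiR-mterf2 library gave AHA2 an edgeR adjusted p of 0.0917 to 0.108. Of 8 storage genes, 5 were tested and 60% were called, against 36.4% of all genes tested. FER4 rose. VTL2 and VTL5, of a family related to vacuolar iron transporters, fell by 1.49 and 1.21 on the log2 scale (edgeR adjusted p 0.00356 and 0.0257). VTL5 lost the call without amiR-mterf2 replicate 2 or 3 or Col-0 replicate 1 or 3 (edgeR adjusted p 0.0539 to 0.0828). Leaving out Col-0 replicate 2 gave 6 tested storage genes, with 2 higher and 3 lower, while 42.9% of all genes tested were called. BHLH34, AHA2, VTL2 and VTL5 were named after their values were seen.

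**Figure D4:**
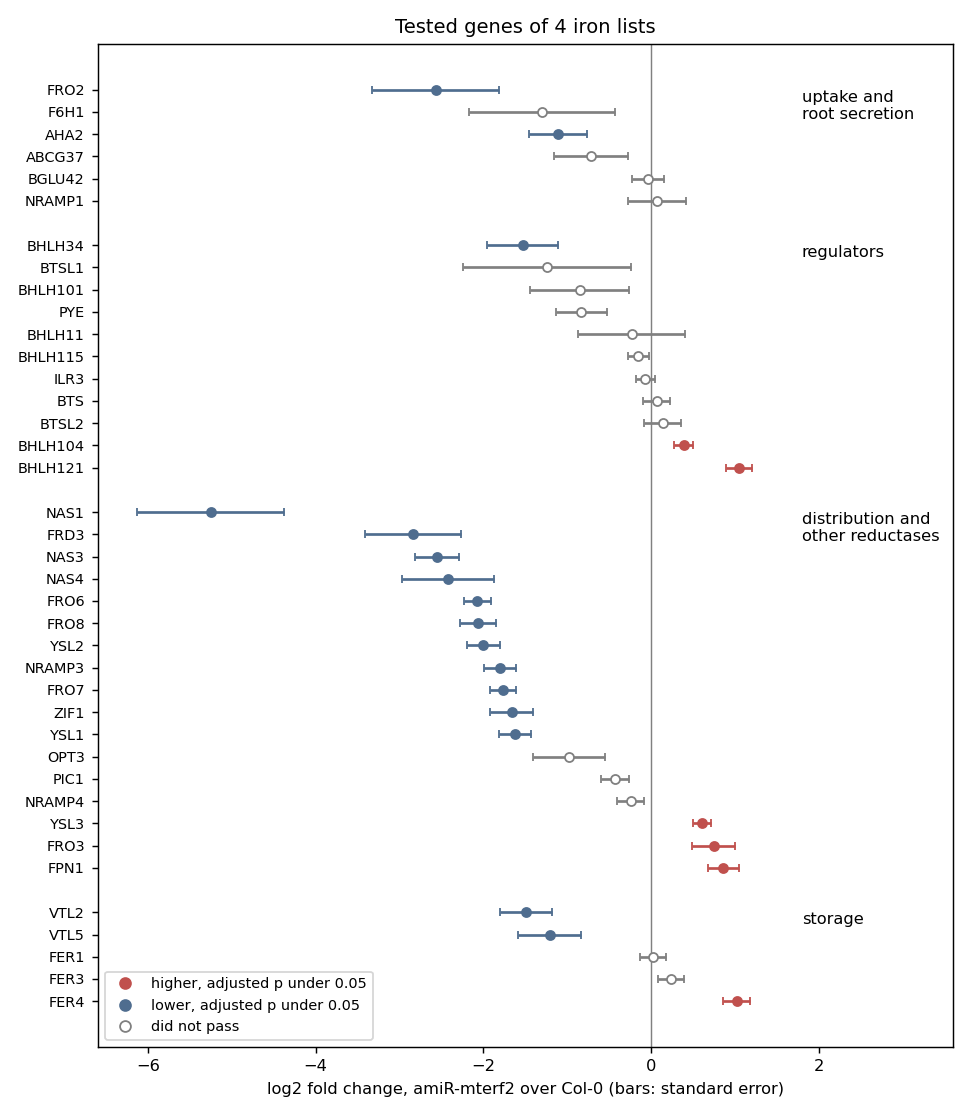
Log2 fold change, amiR-mterf2 over Col-0 (x axis, bars are standard errors), of the 39 tested genes of the 4 iron lists (y axis), filled where the edgeR adjusted p was under 0.05. The distribution list holds 11 of the 16 genes that were lower, and the storage, distribution and regulator lists hold the 6 that were higher.

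The single-library pattern of IRT1, BHLH38 and BHLH39 was seen in other iron genes. Of the 51 genes of the wider lists with at least 20 counts, 10 had a CPM there more than 4 times that of every other library, while 1.89% of all genes did. They were IRT1, IRT2, F6H1, BHLH38, BHLH39, BHLH100, BTSL1, IMA1, IMA2 and NAS1, which include uptake genes, their bHLH regulators and small peptides that activate the response. The factor of 4 was chosen after the data were seen, and no test was made of the difference.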

How the data were processed

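RNA was sequenced as read pairs from 3 independent biological replicates of each genotype. The authors deposited raw counts of reads per gene over exons for each library, without normalization, and no per-sample column was left unmapped (0 columns). The column headers name HISAT2, while the submitters' processing notes list Trimmomatic, FastQC, TopHat2 2.1.1, featureCounts and build TAIR10. Strand, multi-mapping and pair settings are not given in the sources used here.

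Of the 36917 identifiers, 36632 matched RefSeq TAIR10.1, which gave the coordinates, exon lengths and sequences. Genes were kept by filterByExpr (minimum count 10, minimum total 15), leaving 17902. The main test was edgeR 4.0.16 quasi-likelihood with TMM scaling on all 6 libraries, Benjamini-Hochberg adjustment over all genes tested and a threshold of 0.05, in R 4.3.3. CPM used TMM-scaled library sizes. Standard errors were derived from the F statistic. Alternatives were DESeq2 1.42.0, other scalings and filters, a replicate block and leaving out each library. Halving the counts of 5 libraries was added after seeing the data. The limit of 3 counts covers counting error alone, since PCR copies could not be told from separate molecules. It also treats counts as independent, and may be too low in the 5 libraries with mostly even small counts. The script was tested on simulated data.

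The members and lists were chosen with earlier results of these data known. Named genes were the 10 members, up to 10 called genes per direction in the wider lists by absolute log2 fold change, and the closest paralogs of the members.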

Additional observations from a re-analysis of the deposited data

How the results depend on the processing

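Among 313 values of named genes under the alternatives, 283 kept their direction and side of the threshold, 14 lost the call, 8 gained it and 8 reversed. With total counts and no TMM, 2131 of all genes were called higher and 4136 lower. In that fit 2 members were lower (FRO2 and PYE), and the log2 fold changes of BTS, FER1 and BTSL2 were -0.07, -0.15 and -0.02. With at least 10 counts in every library, that of FER1 was -0.01. The DESeq2 Wald test called 2 members lower (FRO2 and FIT, adjusted p 0.0416), against 2953 genes higher and 3165 lower of 25273 in all. With no filter on low counts, 4 were lower (FRO2, FIT, IRT1 and BHLH39), of which IRT1 had counts in Col-0 replicate 2 only. Over all genes, 3415 were then higher and 3388 lower of 25351. After halving the counts of the 5 libraries with mostly even small counts, no member (0) was higher, and FRO3 had an edgeR adjusted p of 0.0517. That fit called 3083 genes higher and 3193 lower of 16447. Leaving out each library in turn gave 0 to 2 members higher and 1 to 2 lower, and log2 fold changes of -0.03 to 0.30 for BTS, -0.16 to 0.13 for FER1 and -1.80 to 1.68 for BTSL1. Over all genes, these fits called 2479 to 4045 higher and 2489 to 3804 lower. No pairing by replicate number was visible: same-numbered libraries correlated at 0.03, 0.02 and -0.01 in their deviations from the group means, and not every library correlated best with its own number. With 3 libraries per genotype and Col-0 replicate 2 apart from the rest, these values cannot decide whether the samples were raised in pairs. With the replicate block, 1 member was higher and 2 were lower (FRO2, and PYE with a log2 fold change of -0.89 and an edgeR adjusted p of 0.0426), against 3146 genes higher and 3126 lower in all. Depth limits IRT1, FIT, BHLH38, BHLH39 and MYB72, which most libraries measured with few counts or none, so that whether IRT1, FIT and BHLH39 were called depended on the filter and the tool.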

Other observations

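Other root iron genes were at or near 0 in most libraries. IMA1, a small peptide that activates the response, had 0, 2 and 0 counts in amiR-mterf2, against 6, 38 and 0 in Col-0, and IMA2 had 4, 0 and 2 in amiR-mterf2, against 0, 35 and 4 in Col-0, although they share an identical coding run of 55 bases. CYP82C4, an enzyme of coumarin synthesis, had 0 counts in every amiR-mterf2 library, against 0, 15 and 0 in Col-0, and S8H, of the same pathway, had 0 counts in all 6 libraries. The coumarin exporter ABCG37 had 4.67, 4.49 and 5.50 CPM in amiR-mterf2, against 3.71, 15.7 and 4.86 CPM in Col-0, and did not pass the test (edgeR adjusted p 0.236). OPT3, a phloem transporter that acts in iron signalling from the shoot, had 20.2, 22.1 and 16.9 CPM in amiR-mterf2, against 20.5, 77.2 and 19.9 CPM in Col-0, with a log2 fold change of -0.98 (edgeR adjusted p 0.101) that was -0.03 without Col-0 replicate 2. In each of these genes except S8H the highest value was that of Col-0 replicate 2. They were chosen after their values were seen.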
